A study of Mus musculus with 4 samples.

Results

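The TNF superfamily of ligands and the TNF receptor superfamily were followed in RNA sequencing of mouse colonic mucosa. Members were taken by gene symbol, as every gene named Tnfsf or Tnfrsf with a number plus Tnf, Lta, Ltb, Ltbr, Fas, Fasl, Cd40, Cd40lg, Cd27, Cd70, Ngfr and Eda2r, from the symbols listed for WT replicate 1. This gave 42 of the 19308 genes listed for all 4 libraries, 16 ligands and 26 receptors; Cd70 was not in that list and was not analysed here. The study compared wild-type (WT) C57BL/6 mucosa with mucosa of Itch-/- mice (Itch KO), which lack the HECT-type ubiquitin ligase ITCH, with 2 libraries per group. The labels mark all 4 samples as inflamed, whereas the protocol speaks of inflammation for the knockout mucosa. They give no age, treatment, background strain of the knockout or design of the Itch allele, and do not say whether the libraries of a group came from separate animals, so the p-values cover no more than the spread from library to library, which may be technical. The comparison asks how transcript levels in the mucosa of the knockout differ from those of WT.

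TNF superfamily ligands are mostly trimeric membrane proteins, many of them shed into soluble forms, and they act by clustering their receptors. Receptors without a death domain recruit TRAF adaptors and drive NF-kB and MAP kinase signalling, whereas death receptors recruit TRADD or FADD and can also start caspase-dependent or RIPK3-dependent cell death. In the gut the family organises lymphoid follicles (lymphotoxin), sustains B cells and plasma cells (BAFF and APRIL), costimulates T cells, and includes TNF itself, the target of antibody therapy in inflammatory bowel disease.

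Total counts over the 19308 shared genes ran from 8181193 to 12199709 per library, and levels are given as CPM, counts scaled to a library of a fixed size with TMM factors. Itch, the gene the knockout is named for, had 203 and 183 CPM across the WT libraries and 11.9 and 13.4 CPM across the knockout libraries. The log2 ratio of knockout over WT, as fitted by edgeR, was -3.93 with a standard error, SE, of 0.15 (edgeR adjusted p = 0.0922). Epithelial markers, led by Cdh1, were present in every library, with a summed level of 1562 to 2036 CPM. WT replicate 1 stood apart through squamous epithelium markers, led by Krt5, with a summed level of 628 CPM against 14.3 to 18.9 CPM in the other 3 libraries; 1 of these 7 markers, Dsg3, singled out after its values were seen, was at 0 in WT replicate 2. B and plasma cell markers summed to 50.5 and 45.5 CPM in the WT libraries and to 809 and 825 CPM in the others, T cell markers to 93.6 and 123 against 252 and 345 CPM, and myeloid markers to 361 and 226 against 666 and 988 CPM. All 10, 10 and 8 listed genes of these 3 lists had every knockout value above every WT value, as 30.0% of all tested genes did. In bulk mucosa, more cells of a type and more RNA per cell cannot be told apart.

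Most members stood higher in the knockout mucosa, and the median difference was larger over the ligands than over the receptors. Of the 42 members, 40 passed the filter on low counts (at least 10 counts in enough libraries), and Tnfsf4 and Tnfsf18 did not. Both knockout libraries lay above both WT libraries for 26 of the 40 tested members, where 30.0% of all 16956 tested genes did so, and below them for 2, where 26.0% of all genes did so. Among ligands this separation upward held for 10 of 14 tested and among receptors for 16 of 26. The median log2 fold change was 2.04 over the 14 ligands and 0.67 over the 26 receptors, against 0.0085 over all tested genes. The median of the ligands depended on the filter. Without a filter it was 1.75 over all 16 ligands, and 0.67 over the 26 receptors. With a mean of at least 5 CPM required it was 1.84 over 12 ligands, and 0.65 over the 26 receptors. The difference between the medians of ligands and receptors was not tested. Without Itch KO replicate 2 the median of the ligands was 1.29 and that of the receptors 0.52; without WT replicate 1, the library with squamous markers, they were 1.90 and 0.97.

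No member passed edgeR's quasi-likelihood test at an adjusted p of 0.05, and neither did any of the 16956 genes (0%). At an unadjusted p under 0.05, 17 members were higher and 1 was lower, beside 10.2% and 9.52% of all genes. limma voom also called 0 members. DESeq2, the alternative count test, called 13 of the 40 members higher (5.24% of all genes) and 1 lower (4.76% of all genes), and without Itch KO replicate 2 it called 7 higher and 1 lower. The DESeq2 calls comprised 6 ligands and 7 receptors higher, and the receptor Tnfrsf19 lower. The 8 members Ltb, Tnf, Cd40, Tnfrsf13b, Tnfrsf13c, Tnfrsf9, Tnfrsf1b and Tnfrsf19 were called by DESeq2 whichever library was left out. For a single value, an exact two-sided permutation test of 2 against 2 libraries cannot fall below p = 0.333, so none is given.

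**Figure D1:**
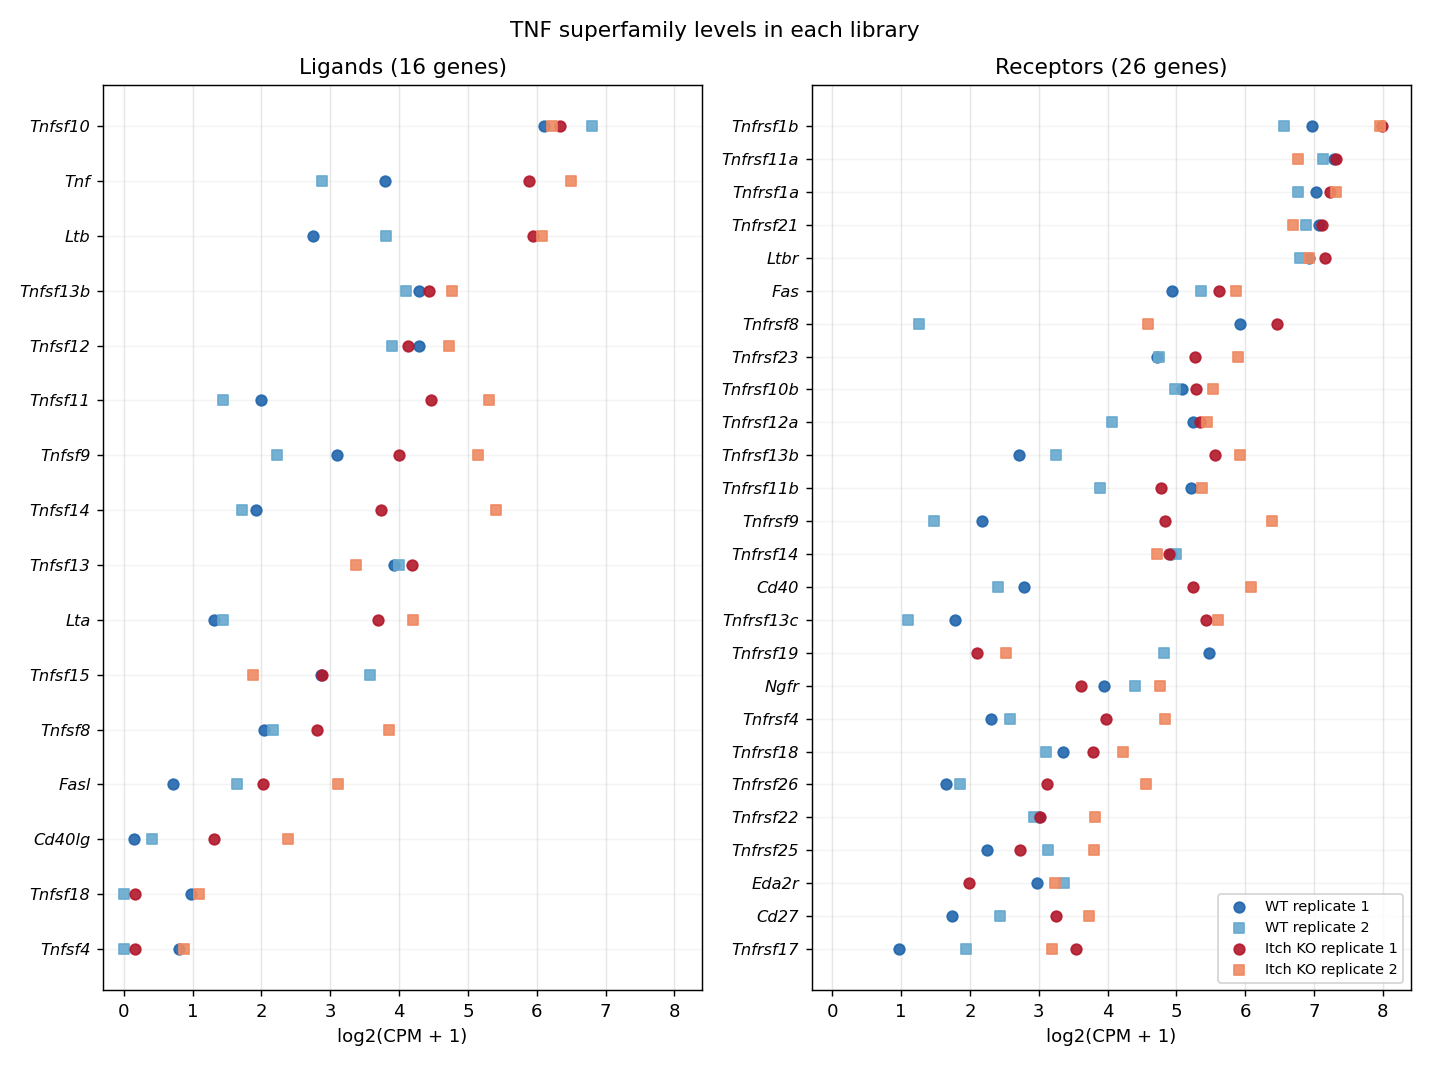
Levels of the 16 ligands (left) and 26 receptors (right) as log2(CPM + 1) in each library, WT in blue and Itch KO in red or orange, genes ordered by mean level. The knockout points lie to the right of the WT points for Tnf, Ltb, Lta, Cd40 and Tnfrsf13c, and to the left for Tnfrsf19. For Tnfrsf21 the knockout points lie on either side of the WT points, and for Ltbr one knockout point lies between the WT points and the other to their right.

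The ligands of the TNF and lymphotoxin system were all higher in the knockout mucosa, while 3 of their 4 receptors differed little. All 4 ligands were higher in both knockout libraries, as 30.0% of all tested genes were, with log2 fold changes of 2.76 to 3.41. DESeq2 called all 4 higher, beside 5.24% of all tested genes. Tnf, the cytokine that gave the family its name, had 12.9 and 6.34 CPM across the WT libraries and 58.4 and 89.7 CPM across the knockout libraries, a mean of 9.61 ± 4.62 against 74 ± 22.1 CPM (SD, n = 2 each). Its log2 ratio was 2.95 with SE 0.46 (edgeR adjusted p = 0.123, DESeq2 adjusted p = 3.01e-07). The groups did not overlap, and within each group the libraries differed by less than the groups did.

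Lta, which encodes lymphotoxin alpha, a secreted ligand of the TNF receptors, had 1.49 and 1.71 CPM across the WT libraries and 11.9 and 17.3 CPM across the knockout libraries (log2 ratio 3.18, SE 0.52, DESeq2 adjusted p = 0.000184). Ltb, whose product joins lymphotoxin alpha in the membrane trimer that signals through LTBR, was at 5.75 and 13 against 60.7 and 66.8 CPM (log2 ratio 2.76, SE 0.46, DESeq2 adjusted p = 1.75e-06). Tnfsf14, which encodes LIGHT, a T cell ligand of HVEM and LTBR, was at 2.77 and 2.28 against 12.4 and 41.3 CPM (log2 ratio 3.41, SE 0.75, DESeq2 adjusted p = 0.000329). The knockout libraries of Tnfsf14 differed from each other more than those of Ltb, but the groups of each of these 3 genes did not overlap. Their edgeR adjusted p-values were 0.123, 0.127 and 0.148. The DESeq2 call of Lta ended when either knockout library was left out, at adjusted p-values of 0.0572 (replicate 1 left out) and 0.366 (replicate 2 left out), and that of Tnfsf14 ended without Itch KO replicate 2 (adjusted p = 0.54, log2 fold change 2.29). Those of Tnf and Ltb held with each library left out.

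Tnf, Lta and Ltb are neighbours in the MHC region of chromosome 17 (GRCm38), all protein-coding, and their sequences are shown because the 3 genes lie side by side and all had higher levels. Ltb spans 35194439 to 35196320 on the plus strand, Tnf 35199381 to 35202007 on the minus strand and Lta 35203165 to 35205351 on the minus strand, with 3060 bases between Ltb and Tnf and 1157 between Tnf and Lta. The upstream sequence of each, from RefSeq (GRCm38.p6), is given 5′ to 3′ on the gene's strand, ending at the base before the RefSeq start for Tnf (chr17:35202008-35202257, minus strand) and Lta (chr17:35205352-35205601, minus strand), and 68 bases before it for Ltb (chr17:35194257-35194438, plus strand), where the bases in an annotated exon were left out. Capitals mark matches to an NF-kB-like motif, spelled GGG, then any 2 bases, then TTTCC, and to TATAAA, on either strand.
Tnf: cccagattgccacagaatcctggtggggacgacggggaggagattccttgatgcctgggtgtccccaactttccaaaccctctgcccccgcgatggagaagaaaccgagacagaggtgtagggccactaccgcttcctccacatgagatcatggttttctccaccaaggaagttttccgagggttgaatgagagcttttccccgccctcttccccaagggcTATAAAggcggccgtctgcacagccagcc
Lta: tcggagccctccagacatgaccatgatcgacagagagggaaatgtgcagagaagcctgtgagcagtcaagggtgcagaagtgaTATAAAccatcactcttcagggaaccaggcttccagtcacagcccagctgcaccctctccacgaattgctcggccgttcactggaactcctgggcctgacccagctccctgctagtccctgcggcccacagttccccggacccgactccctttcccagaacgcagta
Ltb: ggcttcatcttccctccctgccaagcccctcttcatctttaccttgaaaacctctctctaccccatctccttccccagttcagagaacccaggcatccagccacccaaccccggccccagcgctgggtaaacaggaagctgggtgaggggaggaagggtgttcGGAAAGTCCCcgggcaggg

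The Tnf sequence holds TATAAA starting 29 bases before the start, the Lta sequence holds it starting 167 bases before, and the Ltb sequence holds GGAAAGTCCC, the reverse complement form of the NF-kB-like letters. Of the 42 members, 33 had a promoter in the RefSeq table, 37 promoters in all. The NF-kB-like motif was in the 250 bases upstream of 3 of these 37 (8.11%), those of Ltb, Tnfrsf9 and Tnfrsf25, and in 1.41% of all 32851 promoters. Tnfrsf9 and Tnfrsf25 each also had another promoter, without the motif. TATAAA was in 7 of 37 (18.9%) against 12.4% of all promoters, in 4 of 13 ligand promoters and 3 of 24 receptor promoters. These matches describe the letters in these windows, and no binding was measured.

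The receptors of these ligands were among the most abundant members and, except for Tnfrsf1b, had small fold changes. Tnfrsf1b, which encodes TNFR2, the TNF receptor without a death domain that lymphocytes and myeloid cells carry, had 124 and 93.9 CPM across the WT libraries and 251 and 247 CPM across the knockout libraries (mean 109 ± 21.1 against 249 ± 2.82, SD, n = 2 each). Its log2 ratio was 1.20 with SE 0.18 (edgeR adjusted p = 0.123, DESeq2 adjusted p = 1.32e-05). Tnfrsf1a, the widely expressed death-domain receptor TNFR1, was at 129 and 108 against 149 and 158 CPM, a log2 fold change of 0.38 (SE 0.14, edgeR adjusted p = 0.263). The knockout values of both genes lay above the WT values, and the difference was larger for Tnfrsf1b.

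Ltbr, the lymphotoxin beta receptor of stromal, epithelial and myeloid cells, had overlapping groups, at 120 and 109 against 141 and 120 CPM (log2 ratio 0.19, SE 0.14, edgeR adjusted p = 0.5). Tnfrsf14, which encodes HVEM, the receptor of LIGHT, had 29.2 and 31 CPM across the WT libraries and 28.6 and 25.4 CPM across the knockout libraries (log2 ratio -0.16, SE 0.23). Its groups did not overlap, with the knockout libraries lower, but the difference was smaller than its standard error. Neither receptor was called by any test adjusted over all genes.

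In the B cell system the order was the opposite for BAFF and APRIL, with receptors higher and these survival ligands near their WT level. Cd40 and its ligand gene Cd40lg were both higher, with log2 fold changes of 3.35 and 3.60. All 4 receptors of the B cell system were higher in both knockout libraries, as 30.0% of all tested genes were, with log2 fold changes of 2.28 to 4.65. Tnfrsf13c, which encodes the BAFF receptor of mature B cells, had 2.45 and 1.14 CPM across the WT libraries and 42.2 and 47.6 CPM across the knockout libraries, a mean of 1.79 ± 0.926 against 44.9 ± 3.84 CPM (SD, n = 2 each). Its log2 ratio of 4.65 (SE 0.50) was the largest among the 40 tested members (edgeR adjusted p = 0.123, DESeq2 adjusted p = 4.47e-15). The gap between the groups was larger than the spread within either.

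Tnfrsf13b, which encodes TACI, a receptor of BAFF and APRIL, was at 5.54 and 8.54 against 46 and 59.6 CPM (log2 ratio 2.90, SE 0.35, DESeq2 adjusted p = 4.44e-09). Cd40, the receptor through which T cells help B cells and activate antigen-presenting cells, was at 5.86 and 4.31 against 36.7 and 66.7 CPM (log2 ratio 3.35, SE 0.44, DESeq2 adjusted p = 7.03e-09). Tnfrsf17, which encodes BCMA, a receptor of plasma cells, was at 0.958 and 2.85 against 10.7 and 8.14 CPM (log2 ratio 2.28, SE 0.71). It was not called by DESeq2 (adjusted p = 0.0992). Summed over the 4 receptors, the level was 14.8 and 16.8 CPM in WT and 135 and 182 CPM in knockout libraries, while the B and plasma cell markers given above stood at 50.5 and 45.5 against 809 and 825 CPM. The part of B cell number in these values was not tested.

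The ligands that bind these receptors were spread out. Tnfsf13b, which encodes BAFF, had 18.5 and 16.2 CPM across the WT libraries and 20.7 and 26.3 CPM across the knockout libraries (log2 ratio 0.44, SE 0.31, edgeR adjusted p = 0.475). Tnfsf13, which encodes APRIL, had overlapping groups, at 14.3 and 15 against 17.3 and 9.38 CPM (log2 ratio -0.13, SE 0.46). Cd40lg, the helper T cell ligand of CD40, was nearly absent in WT, at 1 and 4 counts, and had 12 and 41 counts in the knockout libraries. Its level went from 0.106 and 0.325 to 1.47 and 4.23 CPM (log2 ratio 3.60, SE 0.92, DESeq2 adjusted p = 0.156). The BAFF transcript was higher in both knockout libraries by a small step, the APRIL transcript was not, and Cd40lg rests on few counts.

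**Figure D2:**
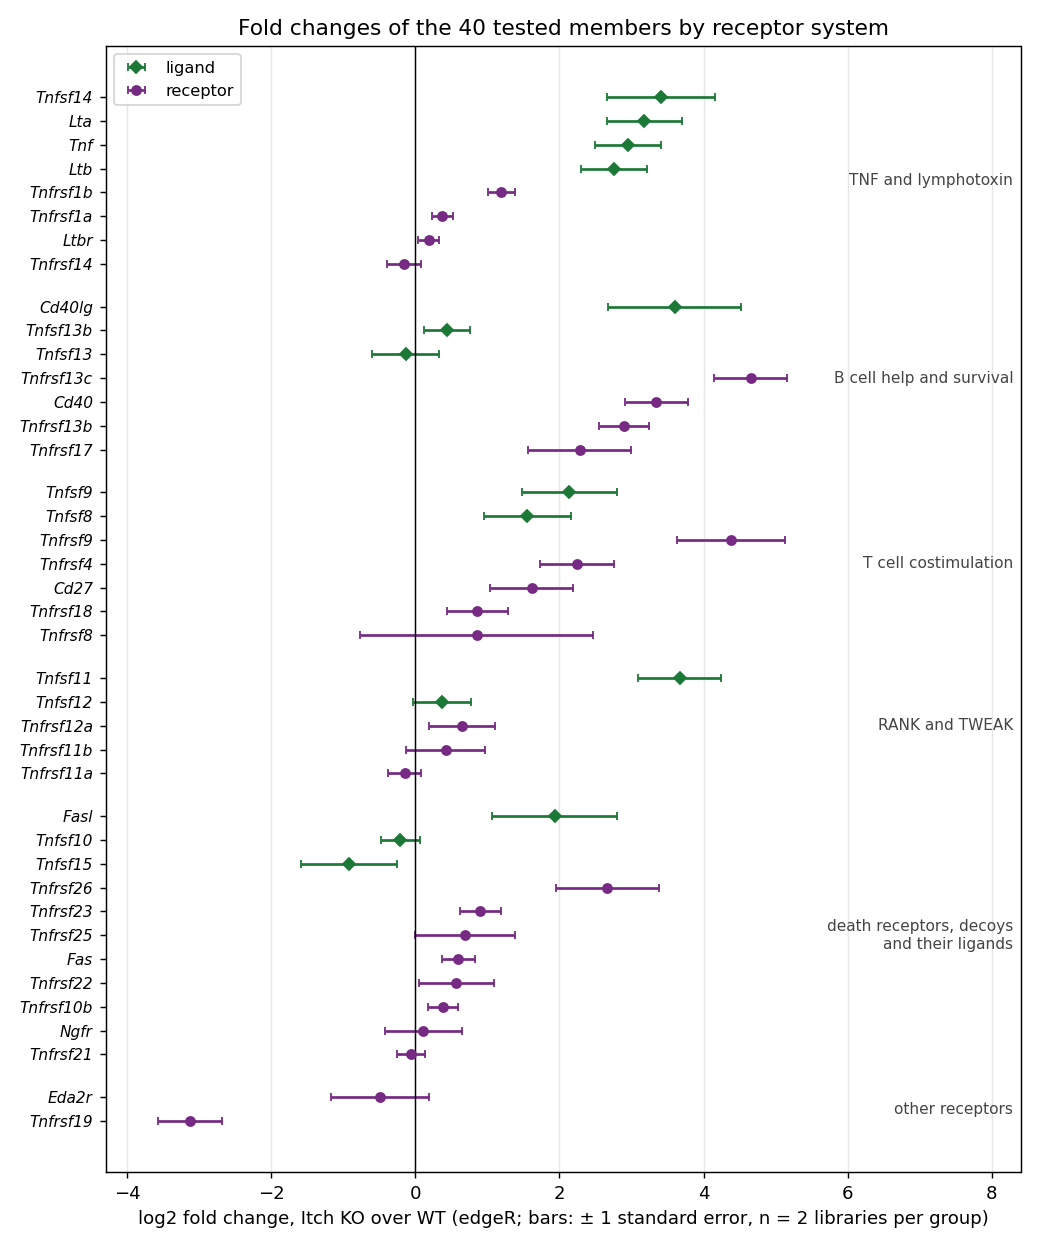
edgeR log2 fold changes of the 40 tested members, Itch KO over WT, with bars of 1 standard error, grouped by receptor system; diamonds are ligands and circles receptors. In the TNF and lymphotoxin group the 4 diamonds lie at 2.76 to 3.41 and the circles at -0.16 to 1.20, in the B cell group the 4 circles lie at 2.28 to 4.65, and Tnfrsf19 is at -3.12.

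Of the 5 receptors of T cell costimulation, DESeq2 called Tnfrsf9 and Tnfrsf4 higher, beside 5.24% of all tested genes. For 4 of the 5, both knockout libraries lay above both WT libraries, as they did for 30.0% of all tested genes. Tnfrsf9, which encodes CD137, an activation receptor of T cells and natural killer cells, had 3.51 and 1.79 CPM across the WT libraries and 27.6 and 82.5 CPM across the knockout libraries (log2 ratio 4.38, SE 0.75, edgeR adjusted p = 0.128, DESeq2 adjusted p = 3.27e-08). Tnfrsf4, which encodes OX40, a receptor of activated and regulatory T cells, was at 3.94 and 4.96 against 14.7 and 27.5 CPM (log2 ratio 2.24, SE 0.52, DESeq2 adjusted p = 0.00589). Both were higher in each knockout library, and the 2 knockout libraries differed from each other more than the WT libraries did. The DESeq2 call of Tnfrsf4 ended whichever library was left out.

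Cd27, a receptor of naive and memory T cells and of B cells, was at 2.34 and 4.39 against 8.46 and 12.3 CPM (log2 ratio 1.61, SE 0.57). Tnfrsf18, which encodes GITR, a receptor abundant on regulatory T cells, was at 9.16 and 7.56 against 12.8 and 17.6 CPM (log2 ratio 0.86, SE 0.43). Neither was called by DESeq2, although the groups of both did not overlap. T cell markers, with sums of 93.6 and 123 CPM in the WT libraries, reached 252 and 345 CPM in the others, and their part in the receptor values was not tested.

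Tnfrsf8, which encodes CD30, a receptor of activated lymphocytes, differed widely between libraries of the same group. It had 59.6 and 1.38 CPM across the WT libraries and 86.7 and 23.1 CPM across the knockout libraries, that is 560 and 17 counts against 707 and 224. Its log2 ratio of 0.85 had an SE of 1.62, was 5.31 without WT replicate 1, and was -0.13 without WT replicate 2 and -0.40 without Itch KO replicate 1. No direction can be given for it, although DESeq2 with a replicate block called it higher (adjusted p = 0.0239). The neighbouring gene Tnfrsf1b, 20266 bases away on chromosome 4, showed no such split.

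Both tested costimulatory ligands stood higher in the knockout mucosa, and Tnfsf9 was the more abundant of them, at 4.35 CPM per kb of exon in WT and 19.1 CPM per kb in the knockout. Tnfsf9, the ligand of CD137, had 7.56 and 3.66 CPM across the WT libraries and 15 and 34.3 CPM across the knockout libraries (log2 ratio 2.14, SE 0.66, DESeq2 adjusted p = 0.0325, called with a library left out only without WT replicate 1). Tnfsf8, the ligand of CD30, was at 3.09 and 3.5 against 6.01 and 13.4 CPM (log2 ratio 1.56, SE 0.61, DESeq2 adjusted p = 0.275). Both were higher in each knockout library than in each WT library. Tnfsf9 shares 14.9% and the receptor gene Tnfrsf18 27.2% of its exonic bases with a gene on the opposite strand, and whether reads were told apart by strand is not given. Tnfsf4, the ligand of OX40, had 7 and 0 counts in WT and 1 and 8 counts in knockout libraries, and Tnfsf18, the ligand of GITR, 9 and 0 against 1 and 11 counts. At this depth no difference was detectable for these 2 ligands, which were at or under 1.13 CPM.

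In the RANK system the ligand was higher in both knockout libraries, and the receptor and the decoy overlapped between groups. Tnfsf11, which encodes RANKL, which drives osteoclast formation and the M cells over intestinal lymphoid follicles, had 2.98 and 1.71 CPM across the WT libraries and 21.1 and 38.4 CPM across the knockout libraries (mean 2.34 ± 0.9 against 29.8 ± 12.3, SD, n = 2 each). Its log2 ratio was 3.67 with SE 0.57 (edgeR adjusted p = 0.123, DESeq2 adjusted p = 7.81e-07, not called without Itch KO replicate 2). Tnfrsf11a, which encodes the receptor RANK, overlapped at 156 and 138 against 158 and 108 CPM (log2 ratio -0.15, SE 0.23). Tnfrsf11b, which encodes osteoprotegerin, the soluble decoy of RANKL, overlapped at 36 and 13.8 against 26.5 and 40.2 CPM (log2 ratio 0.42, SE 0.55). All 7 markers of lymphoid stroma had knockout values above WT values (30.0% of all tested genes), and 1, Ccl19, was at 0 in WT replicate 2. They summed to 115 and 69 CPM in the WT libraries and to 353 and 412 CPM in the others. Cr2 gave 5.75 and 1.95 CPM of the WT sums and 121 and 110 CPM of the knockout sums. It is also in the list of B and plasma cell markers. The part of the lymphoid stroma markers in the Tnfsf11 values was not tested.

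Neither gene of the TWEAK pair was called by a test adjusted over all genes. Tnfsf12, which encodes TWEAK, overlapped at 18.6 and 13.8 against 16.4 and 25.5 CPM (log2 ratio 0.37, SE 0.40). Tnfrsf12a, which encodes its receptor FN14, an injury-induced receptor of epithelium and stroma, was at 36.9 and 15.7 against 39.7 and 42.7 CPM (log2 ratio 0.65, SE 0.46). The knockout libraries of Tnfrsf12a lay just above WT replicate 1 and well above WT replicate 2, and its log2 ratio was 1.41 without WT replicate 1 and 0.15 without WT replicate 2. That of Tnfsf12 ran from 0.028 without Itch KO replicate 2 to 0.65 without Itch KO replicate 1. The values of Tnfsf12 and Tnfsf13 are uncertain, because 46.8% and 57.3% of their 50-base transcript windows also occur in Tnfsfm13, a gene model that joins the 2 neighbours on chromosome 11.

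**Figure D3:**
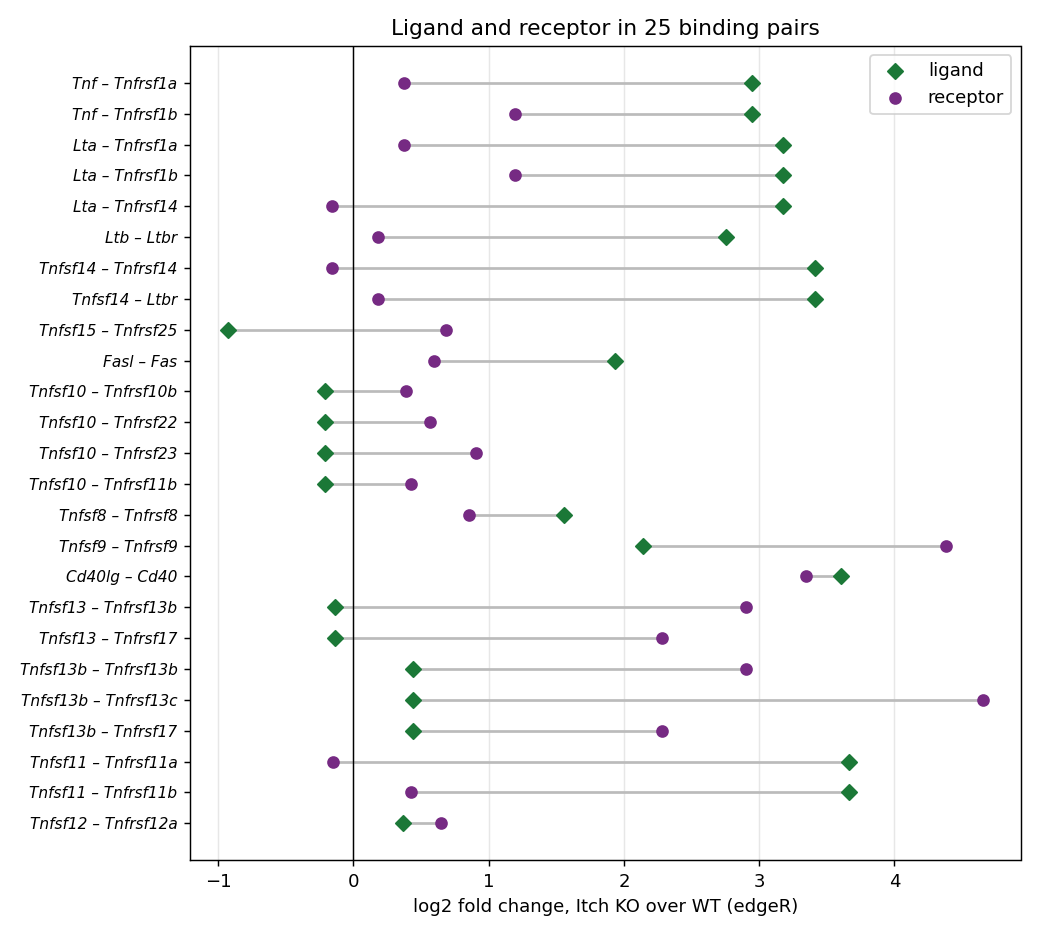
log2 fold changes of ligand (diamond) and receptor (circle) in 25 binding pairs in which both were tested, Itch KO over WT. The pairs from Tnf to Tnfsf14 and those of Tnfsf11 have the diamond to the right, and the pairs of Tnfsf13 and Tnfsf13b have the circle to the right.

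Over the 25 known binding pairs in which both partners were tested, the ligand had the larger fold change in 13 pairs. In 10 pairs both partners were higher in each knockout library than in each WT library. In 7 pairs the ligand alone was, and in 6 the receptor alone was. Taken singly, 30.0% of all tested genes were higher in this way, and no such share was computed for gene pairs outside the family. Members recur in the 25 pairs, which involve 14 ligands and 18 receptors, so the pairs are not independent. The 2 pairs with log2 fold changes above 2 on both sides were Cd40lg with Cd40, at 3.60 and 3.35, and Tnfsf9 with Tnfrsf9, at 2.14 and 4.38. The difference between the partners of a pair was not tested.

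Over the 11 death receptors, decoys and their ligands the median log2 fold change was 0.57, and 6 of the 11 had every knockout value above every WT value, as 30.0% of all tested genes did. Fas, the receptor that triggers apoptosis of lymphocytes and epithelial cells, was at 29.7 and 40 against 48.3 and 57.3 CPM (log2 ratio 0.60, SE 0.23, edgeR adjusted p = 0.264). Fasl, its ligand on cytotoxic cells, was at 0.639 and 2.11 against 3.07 and 7.63 CPM (log2 ratio 1.93, SE 0.87, DESeq2 adjusted p = 0.387). Both genes were higher in each knockout library than in each WT library and neither was called by any test adjusted over all genes.

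Tnfsf10, which encodes TRAIL, was the ligand with the highest mean level per kb of exon in WT and had overlapping groups, at 67.6 and 110 against 80.1 and 74 CPM (log2 ratio -0.21, SE 0.27). Tnfrsf10b, the only TRAIL receptor with a death domain in mice, was at 32.9 and 30.6 against 37.8 and 45.2 CPM (log2 ratio 0.39, SE 0.21). Tnfrsf23, a TRAIL decoy receptor of mice, was at 25.2 and 25.9 against 37.5 and 58.2 CPM (log2 ratio 0.90, SE 0.28, edgeR adjusted p = 0.213). Its neighbour Tnfrsf22, also a decoy, was at 7.03 and 6.59 against 7.11 and 13.1 CPM (log2 ratio 0.57, SE 0.52). Tnfrsf23 shares 18% of its 50-base windows and Tnfrsf22 27.4% with transcripts of other genes, among them each other, so the split of reads between them is uncertain.

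Tnfrsf26, the third receptor gene of this cluster on chromosome 7, lies 6083 bases from Tnfrsf22. It had 2.13 and 2.6 CPM across the WT libraries and 7.72 and 22.5 CPM across the knockout libraries (log2 ratio 2.67, SE 0.72, DESeq2 adjusted p = 0.0173, called with a library left out only without Itch KO replicate 1). All 3 genes of the cluster were higher in each knockout library than in each WT library, as 30.0% of all tested genes were. Their log2 fold changes were 0.57 to 2.67.

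Tnfsf15, which encodes TL1A, a ligand linked by human genetics to inflammatory bowel disease, overlapped at 6.28 and 10.9 against 6.38 and 2.68 CPM (log2 ratio -0.93, SE 0.67, edgeR adjusted p = 0.476). Its receptor gene Tnfrsf25, which encodes DR3 of T cells and innate lymphoid cells, overlapped at 3.73 and 7.81 against 5.64 and 13 CPM (log2 ratio 0.69, SE 0.69). Tnfsf15 was the tested ligand with the lowest log2 fold change. Tnfrsf21, which encodes the death receptor DR6, was at 134 and 117 against 137 and 103 CPM (log2 ratio -0.06, SE 0.19), and Ngfr, the neurotrophin receptor of enteric glia and nerves, ranged from 11.3 to 26 CPM in all 4 libraries. Both overlapped between groups.

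Tnfrsf19 was the single member that DESeq2 called lower in the knockout mucosa. It encodes TROY, a receptor known as a Wnt target of intestinal crypt stem cells. It had 43.4 and 27.1 CPM across the WT libraries and 3.31 and 4.74 CPM across the knockout libraries, that is 408 and 333 counts against 27 and 46, a mean of 35.3 ± 11.6 against 4.03 ± 1.01 CPM (SD, n = 2 each). On the log2 scale the ratio was -3.12 with SE 0.44 (edgeR adjusted p = 0.123, DESeq2 adjusted p = 3.7e-07), and it lay between -3.46 and -2.72 in every alternative. The groups did not overlap. The summed epithelial markers in these libraries were 1929 and 1659 against 2036 and 1562 CPM. Of these 11 markers, 2 had both knockout libraries below both WT libraries, as 26.0% of all tested genes did, 9 overlapped and 0 lay above. The part of epithelial cell types in the Tnfrsf19 values was not tested. Eda2r, the receptor of ectodysplasin A2, overlapped at 6.81 and 9.27 against 2.94 and 8.45 CPM (log2 ratio -0.49, SE 0.68).

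Levels per kb of exon rank the members by transcript abundance. In WT mucosa the highest were Ltbr at 48.8 CPM per kb, Tnfrsf1a at 45.7, Tnfrsf21 at 30.6, Tnfrsf1b at 28.5 and Tnfrsf11a at 24.6, all receptors. Neighbours in this order overlapped in their WT libraries, except Tnfrsf1a and Tnfrsf21. In knockout mucosa the highest were Tnfrsf1b at 65.3 CPM per kb, Tnfrsf1a at 59.3, Ltbr at 55.5, Tnf at 45.2 and Ltb at 42. Tnf and Ltb thereby moved from rank 17 and 16 of 42 to rank 4 and 5, and Tnfrsf19 from rank 14 to rank 40. The ligands summed to 61.9 and 65.6 CPM per kb in the WT libraries and to 158 and 231 in the knockout libraries, and the receptors to 324 and 269 against 463 and 498.

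Large fold changes were found among members that were scarce in WT. Of the 30 tested members under 10 CPM per kb in WT, 17 had a log2 fold change above 1, beside 17.4% of all tested genes under that level. Of the 10 members at or above it, Tnfrsf1b alone did, beside 1.73% of such genes, and the other 9 lay between -0.21 and 0.65. The level of 10 was chosen after the values were seen, and sparse genes have wider counting error. The WT level is also the divisor of the fold change, so the split by level is not independent of it. A member scarce in WT can pass the count filter through its knockout libraries alone. Cd40lg did so, with 1 and 4 counts in WT and 12 and 41 counts in the knockout. Fasl had 6 and 26 counts in WT and 25 and 74 in the knockout, and Tnfrsf17 9 and 35 against 87 and 79. Both were under 10 counts in WT replicate 1 and passed only with the knockout libraries. Cd40lg, Fasl and Tnfrsf17 are among the 17 members above. Of the 18 members with a log2 fold change above 1, 16 were higher in Itch KO replicate 2 than in Itch KO replicate 1. Of all 42 members, 32 were, and the share over all tested genes was not computed. Among the 19308 shared genes the highest count was 9389, found in WT replicate 1, and the maxima of the other libraries ran from 4567 to 6812. Whether the counts had an upper limit, and whether one would narrow the fold changes of abundant members, was not tested.

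**Figure D4:**
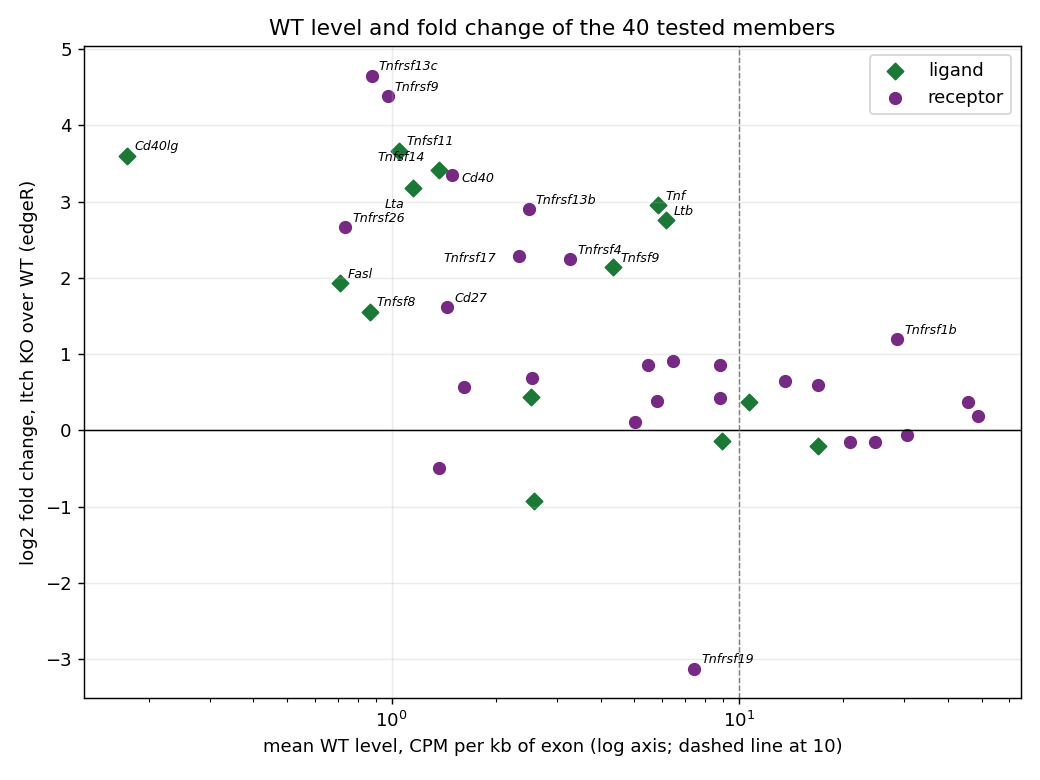
Mean WT level in CPM per kb of exon (log axis) against edgeR log2 fold change for the 40 tested members; names are given where the change exceeds 1 in either direction, and the dashed line marks 10 CPM per kb. To the right of the line only Tnfrsf1b exceeds 1, and to the left 17 members do.

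**Figure D5:**
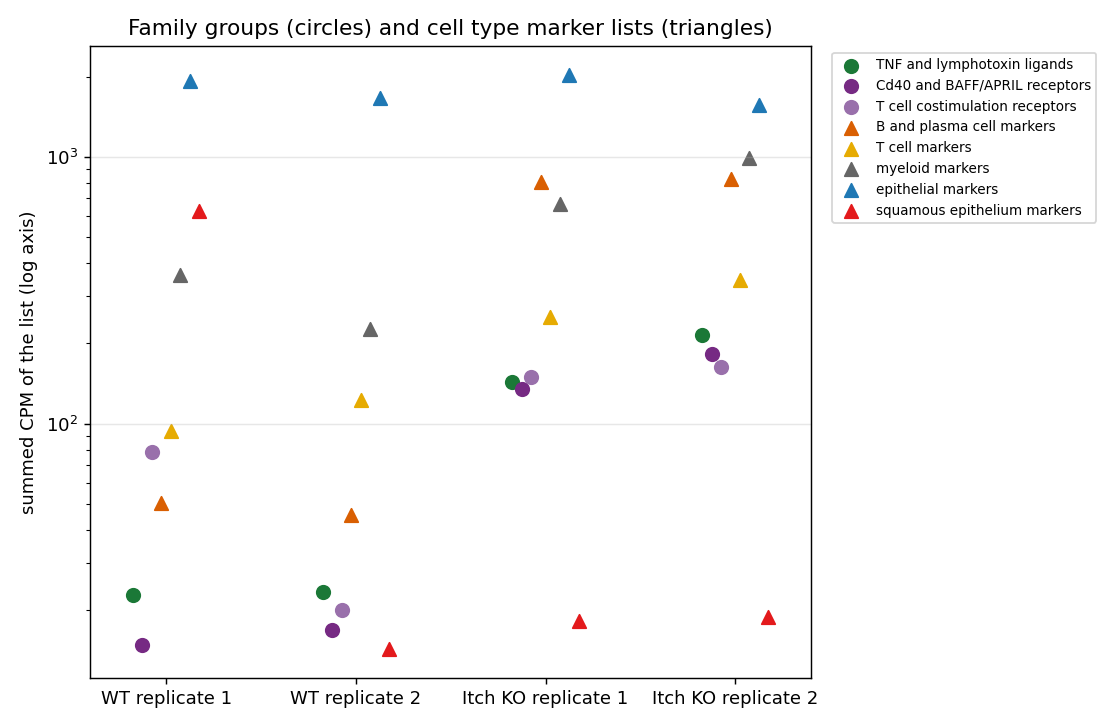
Summed CPM (log axis) in each library of 3 groups of family members (circles) and 5 cell type marker lists (triangles), offset sideways for legibility. The TNF and lymphotoxin ligands, 22.9 and 23.3 CPM in the WT and 143 and 215 CPM in the knockout libraries, and the Cd40 and BAFF/APRIL receptors stand higher in both knockout libraries, as the B cell, T cell and myeloid markers do, while the epithelial markers overlap and the squamous markers are high in WT replicate 1.

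The signalling machinery below the receptors had a median log2 fold change close to that of all tested genes. Of 33 listed genes of TNF receptor signalling, from the adaptors to the kinases and ubiquitin-editing enzymes, edgeR called 0 and DESeq2 called 2, both higher, and 4 were higher and 1 was lower at an unadjusted edgeR p under 0.05. Over all tested genes DESeq2 called 5.24% higher, and 10.2% were higher and 9.52% lower at that unadjusted p. The counts of list genes higher in these tests are thus near the background. Both knockout libraries lay above both WT libraries for 15 of the 33 genes, beside 30.0% of all tested genes. They lay below for 7, beside 26.0% of all tested genes. The median log2 fold change of the list was 0.08, with a range of -0.61 to 1.20. Ripk3, the kinase of necroptosis, had 64 and 58.4 CPM across the WT libraries and 126 and 100 CPM across the knockout libraries (log2 ratio 0.89, SE 0.17, DESeq2 adjusted p = 0.00994). Its substrate gene Mlkl was at 59.7 and 64 against 86.2 and 75.5 CPM (log2 ratio 0.39, SE 0.14). Traip, a ubiquitin ligase first found through its binding to TRAF proteins, was at 15.2 and 14.3 against 35.6 and 31.6 CPM (log2 ratio 1.19, SE 0.26, DESeq2 adjusted p = 0.0236).

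Traf2, the adaptor shared by most receptors of the family, was at 61.9 and 62.9 against 83 and 85.7 CPM (log2 ratio 0.43, SE 0.12), and Tab3, a subunit of the TAK1 kinase complex, at 67.4 and 65.2 against 44.9 and 41.8 CPM (log2 ratio -0.61, SE 0.14). The groups of both did not overlap, and neither was called by a test adjusted over all genes. Tradd, the adaptor of TNFR1 and the list member with the most reads per kb, overlapped at 96.1 and 72.3 against 120 and 87 CPM. Casp8, the initiator caspase of death receptors, was at 110 and 102 against 133 and 114 CPM (log2 ratio 0.22, SE 0.14).

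Among 7 genes that govern shedding of ligands from the cell surface, DESeq2 called 1 higher and 0 lower, beside 5.24% and 4.76% of all tested genes. Mmp7, a matrix protease that can release membrane ligands, had 8.62 and 17.3 CPM across the WT libraries and 48.3 and 38.7 CPM across the knockout libraries (log2 ratio 1.74, SE 0.43, DESeq2 adjusted p = 0.00834). Rhbdf2, a cofactor of the TNF convertase ADAM17 in myeloid cells, was at 69.1 and 73.1 against 95.3 and 131 CPM (log2 ratio 0.67, SE 0.20), and its homologue Rhbdf1 at 96.2 and 102 against 73.6 and 75.3 CPM (log2 ratio -0.42, SE 0.12). These homologues thus differed from WT in opposite directions, neither past the threshold of a test adjusted over all genes.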

How the data were processed

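RNA from 2 WT and 2 Itch KO samples of mouse colonic mucosa was sequenced, and the values deposited by the authors are unnormalized read counts per gene. Per the submitters' processing notes, the tools included TopHat2, HTSeq 0.6.1, CASAVA 1.8.2 and SAMtools 0.1.19, with mm10 and GRCm38 as builds. Whether counting used strand is not given in the sources used here. WT replicate 1 lists 19308 genes and the others 39179, and tests used the 19308 in common. Summary lines, present for 3 libraries and absent from the file of WT replicate 1, were left out; in those 3, reads outside genes held 18.2% to 23% and ambiguous reads 2.67% to 3.03%.

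Counts were tested with edgeR 4.0.16 in R 4.3.3 (quasi-likelihood, robust, TMM, filterByExpr at a minimum count of 10, group as the only term, Benjamini-Hochberg adjustment over 16956 genes at 0.05, two-sided; 2 residual degrees of freedom, biological coefficient of variation 34.8%). The standard error is the log2 fold change divided by the root of the F statistic. DESeq2 1.42.0 and limma 3.58.1 (voom) were alternatives, beside other normalizations, filters, a replicate block and each library left out. Levels per kb use the union of exons in GENCODE M21 (GRCm38), and every member matched a gene there. Scripts were tested on simulated counts. The members, lists and tests were chosen with earlier results of these data known. Named were Itch, the members, the marker with the highest mean of a list, and of the signalling and shedding genes the 8 with the smallest p and the 2 with the highest level per kb.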

Additional observations from a re-analysis of the deposited data

How the results depend on the processing

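With 2 libraries per group, edgeR called no gene under any of its settings and limma voom called none, while DESeq2 called 13 members higher and 1 lower, 889 and 807 of all genes, and 2 signalling genes higher. DESeq2 fits with a library left out or with a replicate block were added after seeing the data. Leaving out each library in turn, with either tool, gave 0 to 12 members higher and 0 to 1 lower, 0 to 809 and 0 to 562 of all genes, and 0 to 1 signalling genes, with every 0 of the members from edgeR. With DESeq2 the members called higher were 12 without WT replicate 1, 10 without WT replicate 2, 10 without Itch KO replicate 1 and 7 without Itch KO replicate 2, and the genes called were 809, 584, 667 and 158 higher and 361, 309, 562 and 280 lower. The median log2 fold change of the ligands then lay between 1.28 and 2.53, lowest without Itch KO replicate 2 and highest without Itch KO replicate 1. Same-numbered libraries of the 2 groups share only a number, and their deviations from the group means correlated at 0.05. With the number as a replicate block edgeR called 0 members, and DESeq2 called 11 higher and 1 lower, 664 and 408 of all genes, and 1 signalling gene; Ngfr was then at -0.014 on the log2 scale. Over 18 alternatives, 31 of the 40 tested members kept their direction. With a library left out, the log2 fold change of Ngfr ran from -0.62 to 0.59, of Tnfrsf21 from -0.30 to 0.14, of Tnfsf10 from -0.52 to 0.18, of Tnfrsf11b from -0.14 to 1.29, of Tnfrsf8 from -0.42 to 5.31, of Eda2r from -1.45 to 0.071, of Tnfsf13 from -0.65 to 0.25, of Tnfrsf11a from -0.47 to 0.11 and of Tnfrsf25 from -0.034 to 1.32. The cause was not tested.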
